A study of Mus musculus with 6 samples.

Results

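The 7 genes described here, Phox2a, Gata2, Gata3, Insm1, Th, Dbh and Ddc, mark the autonomic and sympathoadrenal branch of the neural crest. They were chosen by name: each is 1 row of a table of 46983 genes whose Ensembl identifier carries that symbol in GENCODE mouse release M21 (build GRCm38). RNAseq was read for GFP-positive cells labelled as neural crest cells (NCCs) and sorted from E11.25 mouse embryos, with 3 control and 3 BAF155/170-deficient libraries. BAF155 and BAF170, encoded by Smarcc1 and Smarcc2, are core subunits of the BAF chromatin remodeling complex, and the comparison asks which transcripts differ when both are deleted in NCCs.

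Controls were Wnt1Cre/+;BAF155 flox/+;BAF170 flox/+;Rosa26 mTmG/+ embryos, so they had lost 1 copy of each subunit gene in Cre-active cells, and deficient embryos were flox/flox at both genes with the same Cre and reporter. Both groups therefore carried Wnt1Cre and the Rosa26 mTmG reporter, which turns from Tomato to GFP in Cre-active cells and their descendants. Wnt1Cre is also active in the dorsal neural tube, so a GFP gate can hold central nervous system cells as well as NCCs. Cells of 3 embryos of each genotype were collected, and p-values measure the spread between these libraries only.

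Trunk neural crest cells that settle beside the dorsal aorta take on a sympathetic fate in response to BMP signals, and a network of transcription factors that includes Phox2a, Hand2, Gata2, Gata3 and Insm1 then switches on the genes for noradrenaline synthesis. Tyrosine hydroxylase (Th) makes L-DOPA from tyrosine, aromatic L-amino acid decarboxylase (Ddc) makes dopamine from it, and dopamine beta-hydroxylase (Dbh) makes noradrenaline from dopamine. The same network serves sympathetic neurons and the chromaffin cells of the adrenal medulla, while several of its members also act elsewhere, Gata2 and Gata3 in blood cells and spinal interneurons and Insm1 in many newborn neurons.

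Library totals ran from 8191219 to 19808620 counts, and every control library was shallower than every deficient library. Of 13961 genes that passed the filter on low counts, 681 were called lower and 8 higher in deficient libraries. A call required that the adjusted p not exceed 0.1, that the log2 fold change reach 0.58 in either direction and that the mean level reach 2 CPM, the count scaled to library size. Smarcc1 lay between 35.1 and 55.0 CPM in controls and between 24.5 and 29.4 in deficient libraries (log2 fold change −0.71 ± 0.16 SE, adjusted p = 0.0676 by edgeR's quasi-likelihood test), whereas Smarcc2 showed −0.11 ± 0.06 with an adjusted p of 0.251. Libraries are named by their labels throughout, and for Smarcc2 no difference passed the test. The label of the cells as NCCs is not matched by their most abundant markers. The 12 macrophage genes checked, all detected, summed to between 11889 and 13738 CPM in controls and between 13845 and 15144 in deficient libraries, while 15 mesenchymal crest genes summed to between 172 and 285 and between 101 and 130. All 12 macrophage genes had positive log2 fold changes with a median of 0.19, and 1 had an adjusted p of at most 0.1, under the fold that a call required. Their part in the members' values was not tested.

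The windows upstream of the annotated starts show what kind of promoter the transcription factors and Th carry. RefSeq start sites on GRCm38.p6 gave windows of 250 bases for 6 of the 7 genes, 8 windows in all. None was listed for Insm1, the 1 member called lower. Shown 5′ to 3′ are those of the 2 factors with an adjusted p of at most 0.1 and a listed window outside their own exons, Gata3 (chr2:9878601-9878850, minus strand) and Gata2 (chr6:88193641-88193890, plus strand), together with Phox2a (chr7:101818063-101818312, plus strand) and Th (chr7:142899996-142900245, minus strand). Of the Th window 19 bases lie in annotated Th exons. Capitals mark, on either strand, the GC box GGGCGG, the homeodomain core ATTA, the core GATA and the cyclic AMP response element TGACGTCA.
Gata3: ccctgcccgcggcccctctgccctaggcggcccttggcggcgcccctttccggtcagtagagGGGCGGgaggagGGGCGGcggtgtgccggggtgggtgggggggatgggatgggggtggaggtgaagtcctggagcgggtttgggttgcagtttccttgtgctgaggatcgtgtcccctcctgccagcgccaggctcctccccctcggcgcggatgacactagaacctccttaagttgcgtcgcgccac
Gata2: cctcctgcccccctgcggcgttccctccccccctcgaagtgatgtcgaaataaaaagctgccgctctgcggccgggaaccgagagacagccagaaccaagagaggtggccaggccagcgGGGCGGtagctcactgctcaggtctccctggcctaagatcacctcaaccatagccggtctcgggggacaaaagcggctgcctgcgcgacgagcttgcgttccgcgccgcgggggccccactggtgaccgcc
Phox2a: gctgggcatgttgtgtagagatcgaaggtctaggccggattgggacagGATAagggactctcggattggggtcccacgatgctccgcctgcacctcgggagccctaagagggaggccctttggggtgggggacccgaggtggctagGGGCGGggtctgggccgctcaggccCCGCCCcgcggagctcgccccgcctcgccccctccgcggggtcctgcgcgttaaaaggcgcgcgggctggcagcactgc
Th: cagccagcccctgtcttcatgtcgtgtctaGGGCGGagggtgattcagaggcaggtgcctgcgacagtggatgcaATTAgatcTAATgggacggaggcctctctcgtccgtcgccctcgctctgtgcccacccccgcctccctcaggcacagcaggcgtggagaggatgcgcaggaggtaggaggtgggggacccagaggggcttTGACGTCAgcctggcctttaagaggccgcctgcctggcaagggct

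Each of these 4 windows held a GC box, as did the other Gata2 window, whereas the Dbh window and both Ddc windows held 0. The Dbh window and the other Gata2 window lie wholly (250 bases) in annotated exons of their own genes. The motif was in 32.7% of all 32851 windows of that length. Only the Th window, among the 8, held the cyclic AMP response element, present in 1.55% of all windows, and it also held 2 ATTA motifs. ATTA and GATA are common, in 54.9% and 53.6% of all windows. The Phox2a window held 1 GATA motif and the Gata3 and Gata2 windows printed held neither core. G and C made up 70.4% of the Phox2a window, 70.0% of that of Gata3, 67.2% of that of Gata2 and 64.4% of that of Th. The 4 motifs do not share letters in the matches shown.

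All 7 genes had a lower mean in deficient libraries than in controls, and 1 of them, Insm1, was called lower, where 4.88% of all tested genes were called lower and 0.0573% higher. Gata2 and Gata3 had adjusted p-values of at most 0.1 but means under 2 CPM. By adjusted p alone 7.75% of all tested genes were lower and 4.18% higher. The median log2 fold change of the 3 tested members was −1.08 and that of all tested genes −0.02. The other 4, Phox2a and the 3 synthesis enzymes Th, Dbh and Ddc, had between 20 and 55 counts over the 6 libraries and did not pass the filter. The filter asked for 0.823 CPM in at least 3 libraries. Gata2 and Insm1 reached it in all 6 and Gata3 in the 3 controls and 1 deficient library, so Gata3 entered the test through the group where it was high, and the count and median of the tested members are descriptions only. Groups did not overlap for Insm1, Gata2, Gata3 and Ddc, where 16.4% of all tested genes were lower without overlap and 15% higher. In bulk libraries such as these, fewer cells of a type and less RNA per cell cannot be told apart.

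Per kilobase of exon, Insm1 stood highest in both groups and apart from every other member. Its controls had a mean of 3.35 CPM per kilobase and its lowest control, 2.44, exceeded the highest control of Gata3, 0.807. Below it the controls ran in the order Gata3 (0.575), Gata2 (0.465), Phox2a (0.298), Dbh (0.285), Th (0.215) and Ddc (0.199), and each neighbouring pair in that order overlapped. In deficient libraries Insm1 had 1.90 CPM per kilobase, followed by Gata2 (0.215) and Gata3 (0.156), and again no neighbours below Insm1 were separated.

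Insm1 (ENSMUSG00000068154.5, chr2:146221921-146225020, plus strand) encodes a zinc finger factor needed for the differentiation of sympathoadrenal and other neuroendocrine precursors. It was measured at 9.47, 14.2 and 7.55 CPM in control replicates 1, 2 and 3 and at 6.97, 5.62 and 5.03 CPM in deficient replicates 1, 2 and 3. These values rest on between 89 and 106 counts in each library. The groups did not overlap, but deficient replicate 1 lay close under control replicate 3. Means were 10.4 ± 3.41 CPM (SD, n = 3) and 5.87 ± 0.993 (SD, n = 3), a log2 fold change of −0.81 ± 0.24 SE (95% interval −1.34 to −0.29) with an adjusted p of 0.0847 by edgeR. Without control replicate 2 the log2 fold change was −0.54 and the adjusted p 0.273, so the call ended there. It also ended with control replicate 1 left out (0.244), and with either the second (0.166) or the third (0.276) deficient library left out.

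Gata3 (ENSMUSG00000015619.10, chr2:9857078-9890034, minus strand) encodes a zinc finger factor that maintains Th and Dbh expression in sympathetic neurons. Its controls had 1.60, 3.21 and 2.05 CPM and its deficient libraries 0.862, 0.428 and 0.570 CPM. Every deficient library was below every control, and control replicate 2 was the highest of all. Means were 2.29 ± 0.833 CPM (SD, n = 3) and 0.620 ± 0.221 (SD, n = 3). With a log2 fold change of −1.88 ± 0.43 SE (95% interval −2.83 to −0.92) and an adjusted p of 0.0625 by edgeR, it had the largest change of the 3 tested members, on 64 counts in controls and 30 in deficient libraries. Its rank and adjusted p are descriptions only, since it passed the filter through the controls, with 1 of 3 deficient libraries at the level. The 3 annotated genes that overlap Gata3 had at most 10 counts each. The adjusted p rose to 0.214 with control replicate 1 left out and to 0.211 with control replicate 2 left out. It was 0.112 and 0.193 with deficient replicate 2 or 3 left out, so the test was not passed in those 4 fits.

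Gata2 (ENSMUSG00000015053.14, chr6:88193891-88207032, plus strand), whose product acts before and beside Gata3 in the sympathetic network, had 2.13, 3.34 and 2.05 CPM in controls and 1.18, 0.978 and 1.33 in deficient libraries. The groups did not overlap here either. Means were 2.51 ± 0.726 CPM (SD, n = 3) and 1.16 ± 0.176 (SD, n = 3), with a log2 fold change of −1.08 ± 0.35 SE (95% interval −1.84 to −0.31). Its adjusted p of 0.0952 by edgeR lay close to the threshold, and it was 0.144 with DESeq2, 0.128 with library totals in place of TMM factors, and between 0.0598 and 0.305 as each library was left out.

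**Figure D1:**
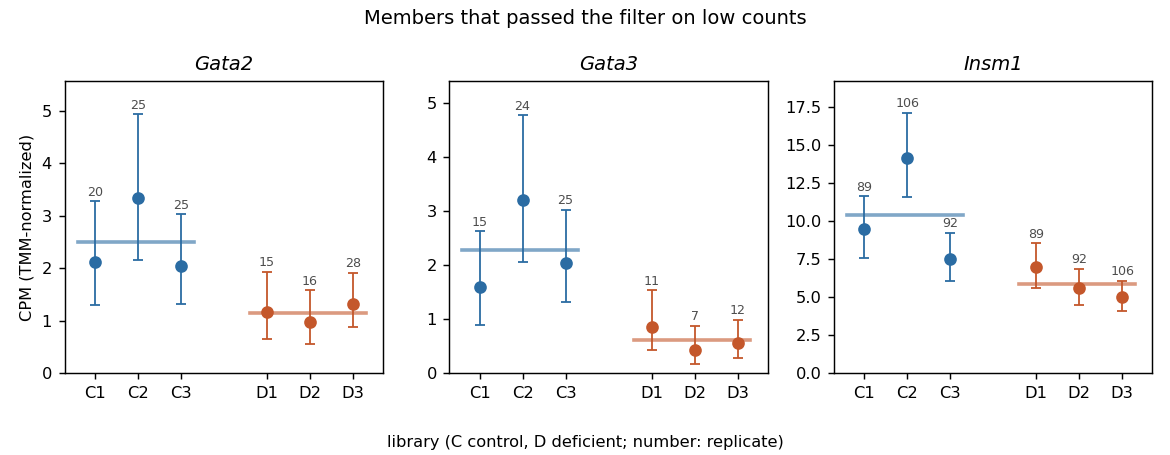
CPM (TMM-normalized, vertical axes from 0) of Gata2, Gata3 and Insm1 in each control (C) and BAF155/170-deficient (D) library. Bars are exact 95% Poisson intervals of the count printed above them, which cover counting error only, and horizontal lines are group means. The deficient points lie below every control point in each panel, and the second control is the highest.

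The enzymes and Phox2a were near the limit of detection. Ddc (ENSMUSG00000020182.16, chr11:11814101-11898144, minus strand) was the best covered of them, with 0.744, 0.936 and 0.985 CPM in controls and 0.627, 0.428 and 0.665 in deficient libraries. Its groups did not overlap, and the exact permutation test (two-sided, n = 3 against 3) gave p = 0.1, the smallest that 3 libraries against 3 allow. With counts pooled over each group the deficient level was 0.646 times the control level (exact 95% interval 0.367 to 1.14), so the difference was not detectable beyond counting error.

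Phox2a (ENSMUSG00000007946.10, chr7:101818313-101822726, plus strand), a homeodomain factor of noradrenergic cells, was measured at 0.532, 1.20 and 0.0821 CPM in controls and at 0.0783, 0.122 and 0.237 CPM in deficient libraries. The groups overlapped, as control replicate 3 lay below 2 deficient libraries. The exact permutation p was 0.3 (two-sided, n = 3 against 3), and 9 of the 15 control counts came from control replicate 2. The pooled ratio was 0.309 (exact 95% interval 0.113 to 0.776) with that library and 0.573 (0.174 to 2.0) without it. The 3′ end of Phox2a overlaps Inppl1 on the opposite strand, which had 13942 counts over the 6 libraries, and the strand setting of the counting is not given in the sources used here.

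Th (ENSMUSG00000000214.10, chr7:142892752-142931128, minus strand) had 3, 9 and 0 counts in controls, or 0.319, 1.20 and 0 CPM, and 1, 2 and 5 counts in deficient libraries, or 0.0783, 0.122 and 0.237 CPM. A count of 0 in control replicate 3 allows a level of up to 0.246 CPM (3 counts), which exceeds every deficient value. The groups overlapped, with an exact permutation p of 0.5 (two-sided, n = 3 against 3). The pooled deficient level was 0.386 times that of controls (exact 95% interval 0.137 to 1.03), but 1.15 times (0.275 to 6.71) without control replicate 2.

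Dbh (ENSMUSG00000000889.8, chr2:27165233-27183200, plus strand) was the most uneven member. Controls had 0, 16 and 2 counts, or 0, 2.14 and 0.164 CPM, and deficient libraries 2, 9 and 2 counts, or 0.157, 0.550 and 0.0950 CPM. Control replicate 2 held 88.9% of the control counts, and the 0 in control replicate 1 allows up to 0.319 CPM. The exact permutation p was 0.8 (two-sided, n = 3 against 3). The pooled ratio of 0.418 (exact 95% interval 0.188 to 0.903) became 2.80 (0.633 to 25.5) when control replicate 2 was left out.

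**Figure D2:**
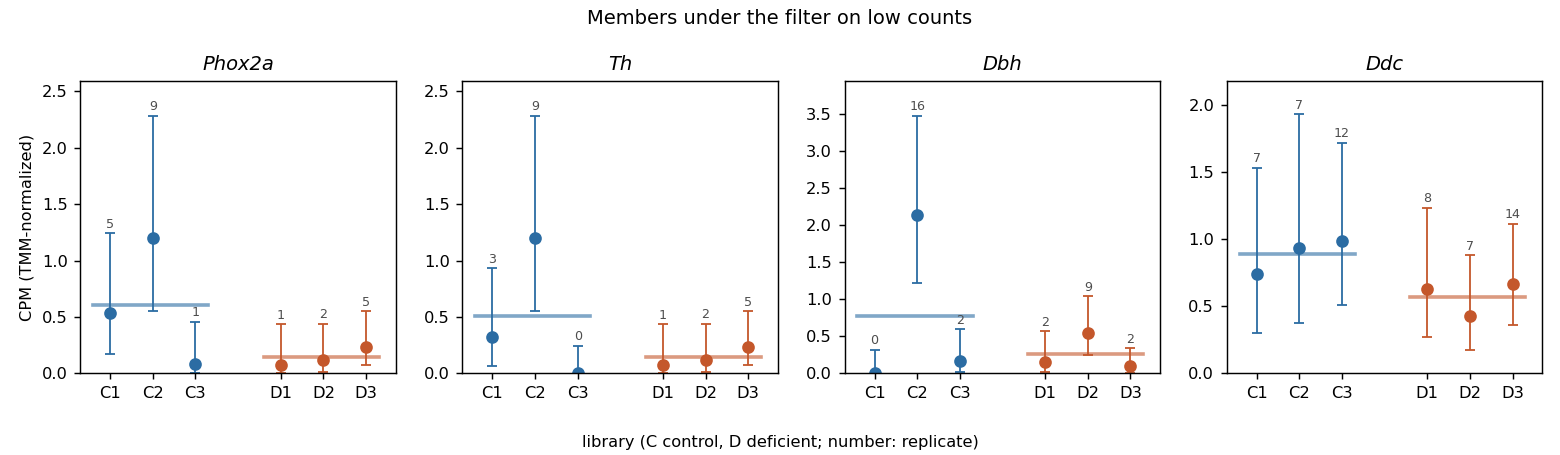
CPM (TMM-normalized, vertical axes from 0) of Phox2a, Th, Dbh and Ddc in each control (C) and BAF155/170-deficient (D) library, with the count printed above each point, exact 95% Poisson intervals (counting error only; for a count of 0, up to 3 counts) as bars and group means as horizontal lines. The second control stands above all other libraries for Phox2a, Th and Dbh, and for Ddc the intervals of all 6 libraries overlap.

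Control replicate 2 was the highest control for 6 of the 7 members, Ddc being the exception. Summed over the 7 genes it had 26.2 CPM, against 14.8 and 12.9 in control replicates 1 and 3 and between 8.17 and 9.95 in deficient libraries. The same library was the highest control for the sum of the 9 pan-neuronal genes checked (222 CPM, with 92.5 to 124 in the other controls and 41.7 to 61.4 in deficient libraries). It was likewise the highest for the sum of 42 embryonic markers of mesenchymal crest, glial crest, sensory neurons and neural tube (517 CPM, with 304 and 376 in the other controls and 200 to 270 in deficient libraries). It also had the highest sum of 10 erythroid genes (61.7 CPM, with 16.6 and 24.8 in the other controls and 10.3 to 15.8 in deficient libraries). Their part in the members' values was not tested.

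Set against the embryonic marker sum of the same library, the tested members went different ways. Insm1 amounted to 2.52%, 2.74% and 2.48% of that sum in controls and to 2.58%, 2.56% and 2.51% in deficient libraries, so the groups overlapped. Gata3 amounted to 0.424%, 0.621% and 0.675% in controls and to 0.319%, 0.195% and 0.285% in deficient libraries, with no overlap. Gata2 gave 0.565%, 0.647% and 0.675% against 0.435%, 0.446% and 0.664%, where deficient replicate 3 lay within the control range. These shares are a description, without a test. When libraries were scaled in the fit to the 26 of these markers with a mean of at least 2 CPM, the median of all genes moved to 0.82 and the log2 fold change of Insm1 to 0.07 (adjusted p = 0.895 by edgeR), that of Gata2 to −0.17 (0.779) and that of Gata3 to −1.0 (0.120). Relative to the moved median they were −0.75, −0.99 and −1.82. Scaling shifts all genes of a library alike, so by construction these values return close to those of the fit without it.

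Genes of other cells that use these members were measured too. Of 10 erythroid genes 6 were tested, with a median log2 fold change of −1.11, 4 below 0 and 2 above, and 0 were called. Among 9 megakaryocyte and mast cell genes the 4 tested had log2 fold changes between 0.12 and 0.20, and the mast cell markers Cpa3 and Ms4a2 were at or under 1.04 CPM everywhere. Others of that list were abundant in every library, Hdc at 46.4 to 60.1 CPM, Pf4 at 38.1 to 56.3 and Tal1 at 31.3 to 38.8. Of the T and innate lymphoid genes, whose cells use Gata3, Il7r lay between 192 and 249 CPM and Lck between 40.1 and 49.6, with log2 fold changes of 0.18 and 0.14, while the T cell gene Cd3e had 0 counts in all 3 controls and at most 0.235 CPM in deficient libraries. Foxn4 and Vsx1, which mark the spinal interneuron lineage that uses Gata2 and Gata3, were at or under 0.401 CPM. Of 8 midbrain dopaminergic genes, whose cells also use Th and Ddc, 4 were tested and had a median log2 fold change of −0.77. Lmx1b (−1.26, adjusted p = 0.0901 by edgeR) and En1 (−2.47, adjusted p = 0.0666) passed the adjusted p, both with means under 2 CPM and both through the controls, since 1 and 0 deficient libraries reached the filter level. Nr4a2 and Otx2, the others tested, reached that level in 3 of 3 libraries of each group and did not pass the adjusted p. The smallest change, in 1 of them, was −0.20. The defining Pitx3 and Slc6a3 were at 0 in all deficient libraries and at or under 0.268 CPM in controls. The 9 pan-neuronal genes, 6 of them called lower, had a median of −1.44, and 7 tested sensory neuron genes, 1 called lower, also −1.44. Of all tested genes 4.88% were called lower. The part of these cells in the members' values was not tested.

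Around the 7 genes, 43 other genes of the autonomic and catecholamine pathway were read from a list. Of these, 23 passed the filter, 5 were called lower and 0 higher by edgeR (2 had an unadjusted p under 0.05 in that direction, and DESeq2 and limma-voom also called 0 higher). Of all tested genes 4.88% were called lower and 0.0573% higher. By adjusted p alone 6 of the 23 were lower and 1 higher, where 7.75% of all tested genes were lower and 4.18% higher. The median log2 fold change of the 23 was −0.80, with 18 below 0 and 5 above, where 52.3% of all tested genes were below 0. Some, Ret and Gfra2 among them, passed the filter through the controls, so these counts and the median are descriptions only. Scaled to embryonic markers the split was 11 below 0 and 12 above. Below the median of all genes, which moved with the scaling, lay 18 of the 23, by construction close to the split without scaling.

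Of 8 other transcription factors, 5 were tested, and 2 were called lower. Tfap2b, encoding an AP-2 factor of the sympathetic and sensory crest, went from 11.5, 18.1 and 9.60 CPM in controls to 6.03, 2.75 and 3.37 in deficient libraries (log2 fold change −1.70 ± 0.33 SE, adjusted p = 0.0583 by edgeR). Isl1, a LIM homeodomain factor of sympathetic and sensory neurons, went from 5.21, 9.77 and 3.36 CPM to 3.52, 1.96 and 1.99 (−1.28 ± 0.41 SE, adjusted p = 0.0965 by edgeR), with deficient replicate 1 above control replicate 3. With the embryonic marker scaling neither was called (−0.78 and −0.35). Relative to the median of all genes, which that scaling moved, they were −1.60 and −1.17, which by construction nearly restates the fit without scaling.

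Of 9 receptor and channel genes 5 were tested, all with log2 fold changes below 0. The shared sign is a description only, since Gfra2, like Ret below, passed the filter through the controls, with 0 of 3 deficient libraries at the level. Ngfr, the p75 neurotrophin receptor of crest cells and their neurons, was called lower. It was measured at 5.32, 9.10 and 2.71 CPM in controls and at 1.49, 1.22 and 1.38 in deficient libraries, without overlap (−2.03 ± 0.41 SE, adjusted p = 0.0534 by edgeR). With the embryonic marker scaling it was −1.08. Its −1.89 relative to the moved median nearly restates, by construction, the fit without scaling. Ret, the GDNF family signalling receptor, had an adjusted p of 0.0911 but a mean of 1.39 CPM (−1.91 ± 0.59 SE), and it passed the filter through the controls, as 0 of 3 deficient libraries reached the level. Ntrk3, the neurotrophin-3 receptor, showed −1.41 ± 0.48 SE with an adjusted p of 0.120.

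Of 9 genes for storage, secretion and uptake 5 were tested and 1, Scg3, a secretogranin of dense-core vesicles, was called lower (3.40, 5.75 and 2.38 CPM in controls, 1.49, 1.28 and 1.80 in deficient libraries, −1.29 ± 0.36 SE, adjusted p = 0.0785 by edgeR). The vesicular monoamine transporters stood apart from each other. Slc18a2 had 2.45, 4.01 and 1.97 CPM in controls and 1.57, 1.22 and 1.42 in deficient libraries (−0.97 ± 0.35 SE, adjusted p = 0.113), whereas Slc18a1 overlapped between the groups (0.25 ± 0.28 SE, adjusted p = 0.611). The difference between them was not tested. Dlk1, a transmembrane protein of chromaffin and other embryonic cells, was called lower (−1.19 ± 0.37 SE, adjusted p = 0.0984 by edgeR), although deficient replicate 1 (5.87 CPM) lay above control replicate 3 (5.58 CPM).

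The 4 tested genes for tetrahydrobiopterin, the cofactor of tyrosine hydroxylase, had a median log2 fold change of −0.06, and the lowest adjusted p among them was 0.112. Gch1, its first enzyme, lay between 127 and 154 CPM in controls and between 158 and 170 in deficient libraries (0.20 ± 0.07 SE, adjusted p = 0.112 by edgeR). Spr and Qdpr showed −0.07 and −0.06. The degrading enzyme Maoa showed 0.15. Npy, a peptide of sympathetic neurons, had 109 to 114 CPM in controls and 123 to 126 in deficient libraries (0.17 ± 0.06 SE, adjusted p = 0.0978 by edgeR), under the fold that a call needed. Pnmt, which makes adrenaline, had 0 counts in every library, and none of 4 cholinergic genes passed the filter.

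**Figure D3:**
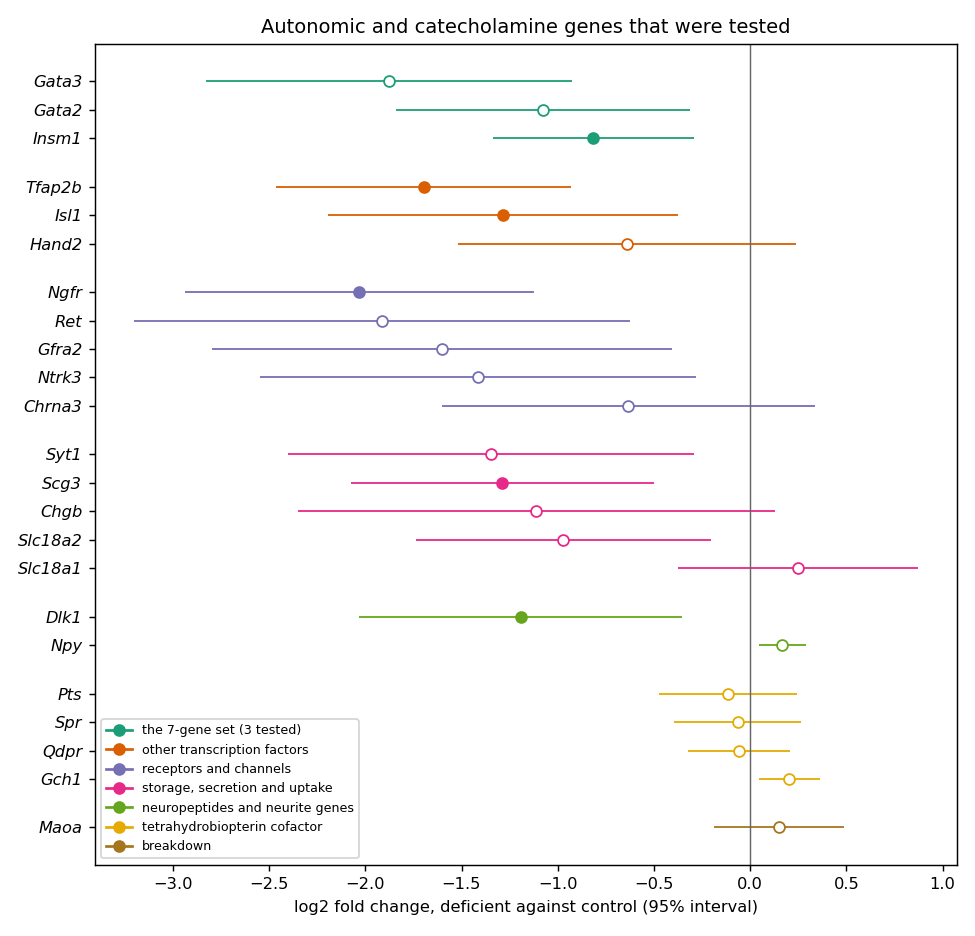
Log2 fold change (deficient against control) with 95% interval of the 3 tested members and 20 of the other autonomic and catecholamine genes tested, coloured by role. Filled points are called and open points are not. Factors, receptors and most vesicle genes lie left of 0, while the cofactor and breakdown genes lie within 0.25 of it. Some genes, Gata3, Ret and Gfra2 among them, passed the filter through the controls.

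Over the 6 libraries the log2 level of Insm1 ran most like that of Crmp1, a neuronal growth cone gene (Pearson's r = 0.999), Prrc2b (0.997) and Cdc16 (0.997), among 11786 genes with a mean of at least 2 CPM. The 6 points include the group difference, and 1231 genes had an r of at least 0.9, so closeness of this kind was common.

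Across the processing choices, direction held more often than the test. The log2 fold change of Gata3 was between −2.14 and −1.0 and passed an adjusted p of 0.1 in 7 of 12 alternatives. Gata2 was between −1.21 and −0.17 and passed in 4 of 12, and Insm1 between −1.01 and 0.07, passing in 8 of 13.

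**Figure D4:**
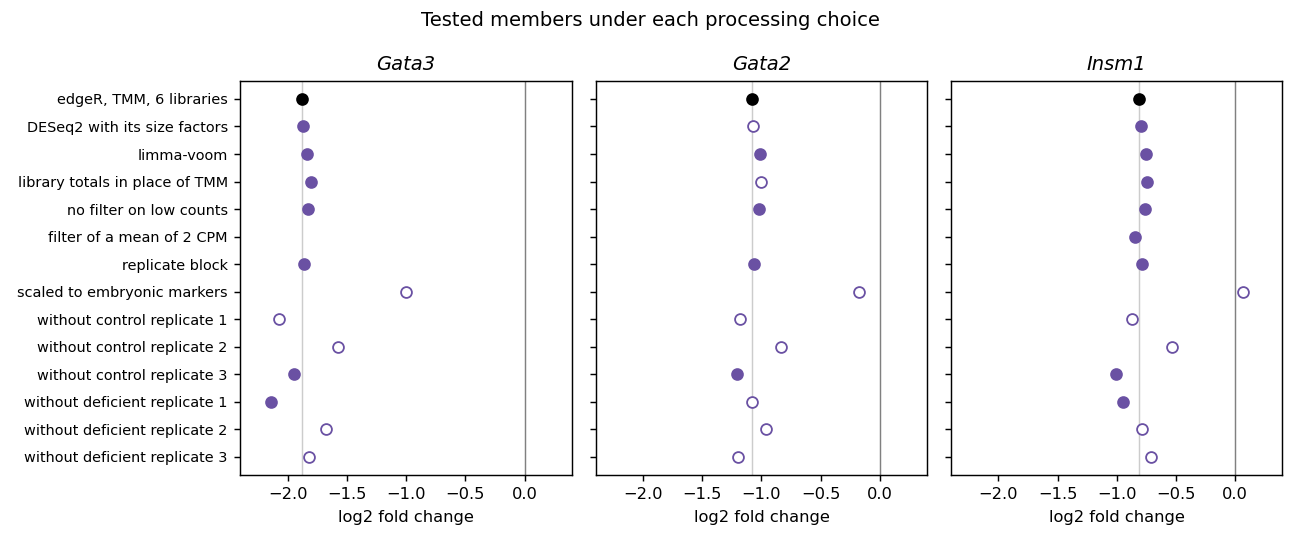
Log2 fold change (deficient against control) of Gata3, Gata2 and Insm1 under each processing choice, the choice used throughout in black. Filled points have an adjusted p of at most 0.1. All lie below 0 but Insm1 scaled to embryonic markers (0.07), and the filter of a mean of 2 CPM left Insm1 alone.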

How the data were processed

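For strand-specific poly(A) libraries the authors removed adapters, mapped read pairs to GRCm38 with STAR, assigned them to genes with featureCounts and deposited raw counts per gene of the 6 samples. Annotation release and strand setting are not given in the sources used here. Of 46983 identifiers, 46488 were named by their unversioned part in GENCODE M21. Those without a name (495) held 0.0558% to 0.0706% of a library.

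Counts were fitted over all genes in edgeR 4.0.16 (R 4.3.3): filterByExpr (minimum count 10, minimum total 15), TMM, robust quasi-likelihood with condition as the only term, Benjamini-Hochberg adjustment over 13961 genes, prior count 2. The common biological coefficient of variation was 12.8%. Call thresholds follow the study. In counts simulated for this comparison, 200 of 13961 genes moved by 2 on the log2 scale. Of these 81.5% were called, in whichever direction, with 7 false calls among the other genes. All genes had the same dispersion, and the change set exceeded that of every tested member, so these figures do not give the power for the members. Members under the filter were compared by exact permutation tests of CPM, and pooled counts by exact conditional Poisson intervals (95%), which cover counting error only. Alternatives used DESeq2 1.42.0, limma 3.58.1 (voom; the study names limma), library totals, other filters and thresholds, a replicate block, embryonic marker scaling and leaving out each library. Members and lists were chosen with earlier results of these data known. Genes named besides the members are called pathway genes, the 3 most abundant tested genes of each pathway group, the 3 genes most like Insm1, the targeted genes and defining markers, unless said otherwise. Some pathway genes are not reported here. Figures used Python 3.11.15 and matplotlib 3.10.9.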

Additional observations from a re-analysis of the deposited data

How the results depend on the processing

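Against 1 member called lower, 0 were called after scaling to embryonic markers, 3 by adjusted p alone, 0 at an adjusted p of at most 0.05, and between 0 and 1 as each library was left out. The members' median log2 fold change was −0.17 after that scaling, and the log2 fold change of Insm1 was 0.068. Against 5 pathway genes called lower, 3 were with a filter of a mean of 2 CPM, 1 after scaling, 0 at 0.05 and between 0 and 8 as each library was left out. Against 689 genes called, 6288 were after scaling (50 lower and 6238 higher, in place of 681 and 8), 1665 by adjusted p alone, 94 at 0.05, and between 0 (without control replicate 1) and 1245 (without control replicate 3) as each library was left out. At an unadjusted p under 0.05 there were 2547 genes without control replicate 1. With the replicate block 1164 genes were called, with Insm1 still the member called (−0.79, adjusted p = 0.0170 by edgeR), Gata2 at −1.07 (0.0625) and Gata3 at −1.86 (0.0141). Deviations of same-numbered libraries correlated at 0.03, −0.03 and 0.29, and not every library correlated best with its own number, so the numbers were not taken as pairs. These are the numbers of the sample titles, which the block also used, and the deposited labels number the deficient libraries differently. Matched by label, control replicate 2 and deficient replicate 1 correlated at 0.26, and control replicate 3 and deficient replicate 2 at 0.0004.

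Without the filter, the adjusted p was 0.288 for Phox2a, 0.478 for Th, 0.397 for Dbh and 0.624 for Ddc. As each library was left out of that fit, chosen after seeing the data, the log2 fold change ran from −2.39 to 1.50 for Dbh and from −2.13 to 0.11 for Th, both above 0 without control replicate 2. For Phox2a it ran from −2.33 (adjusted p = 0.0926, without control replicate 3) to −0.84, and for Ddc from −0.72 to −0.41. Depth limits these 4 genes, since 3 counts equal between 0.142 and 0.401 CPM. The causes of these changes were not tested.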
